A study of Mus musculus with 2 samples.

Results

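A set of 9 transcription factors that steer CD8 T cells towards short-lived effector or long-lived memory states were followed through a map of STAT5 binding after IL-2. They were chosen by gene name: the effector factors Prdm1, Id2, Tbx21 and Zeb2, the memory factors Bcl6, Id3 and Eomes, and Zeb1 and Nfil3 beside them. Of the 9 genes, 8 had a row in the table of 4934 genes near STAT5 regions, with 23 regions between them, and Tbx21 had none. A region here is an interval of raised signal that the authors assigned to every gene near it.

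IL-2 acts on T cells through a receptor whose kinases phosphorylate STAT5, which then enters the nucleus and binds DNA at sites that resemble TTCNNNGAA. Prdm1 encodes Blimp-1, a repressor that drives terminal effector differentiation, and Bcl6 encodes a repressor that opposes it, and each is known to repress the gene of the other. Id2 and Id3 encode inhibitors that tie up E proteins and keep them off DNA. Tbx21 and Eomes encode related T-box factors. Zeb1 and Zeb2 encode related zinc finger repressors, and Nfil3 encodes a leucine zipper factor needed for natural killer cells.

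The cells were OT-I CD8 T cells on a C57BL/6 background, whose transgenic T cell receptor recognises the ovalbumin peptide SIINFEKL. Both groups came from cells transferred into mice, primed there with the peptide plus agonists of CD134 and CD137, and sorted from spleens 4 days later. The IL-2 group (1 library) was given 0.5 µg/ml IL-2 in vitro for 1 hour, and the control group (1 library) was left without it. The labels call the antibody anti-STAT5 and the assay STAT5A ChIP-seq, and the labels do not say whether cells of several mice were pooled. With 1 library per group there were no replicates, so the differences between IL-2 and control have no replicate check and were not tested.

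Values are peak heights in the signal units of the deposited table, and read depth is unknown. For each gene the table gives a mean height per library, taken across its regions, and the highest peak over both libraries, which was in the IL-2 library for each of the 8 genes. Over all 4934 genes the median of the mean height was 20.75 with IL-2 and 5 in control. The genes of the T cell markers Cd3e, Cd3d, Cd8a, Cd8b1 and Trac were all listed (5 of 5), against 0 of 3 B cell and 0 of 3 myeloid marker genes. Of all 21896 protein-coding genes in RefSeq, 19.1% were listed, so a count of 0 of 3 says little. These counts describe regions near the genes and not their expression.

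STAT5 signal as deposited was higher with IL-2 than in control at all 8 listed genes, most at Bcl6 and Id3 and least at Eomes and Id2. The mean heights of the 8 genes ran from 16 to 81 with IL-2 and from 3.5 to 8 in control, and the IL-2 height was the higher one at 100% of all 4934 genes too. An interval was called in the IL-2 library at all 8 genes, as at 100% of all genes, and in the control library at 0 of the 8, against 0.243% of all genes. Ratios were taken after 5 was added to both heights, which makes the fold of low heights smaller. The ratio was at least 2 at 8 of the 8 genes, against 83.8% of all genes in the table. A ratio of at least 4 was reached by Bcl6, Id3 and Nfil3, 3 of the 8, against 23.1% of all genes. Giving the libraries equal medians shifts the median log2 ratio of all genes to 0.13 by construction, so it cannot show a direction. Under it 7 of the 8 genes, all but Eomes, had a log2 ratio above 0, against 58.7% of all genes. A ratio of at least 2 was then reached by 2 genes (Bcl6 and Id3), against 11.9% of all genes. The count of ratios of at least 2 was 8 with 1 added to both heights, against 96.7% of all genes, and 8 when each gene's highest peak replaced its IL-2 mean, against 85.5%. It was 6 with 10 added to both heights, against 56.4%, and a ratio of at least 1.5 was reached by 8, against 98.3%. Genes entered the table through an IL-2 interval, so the 8 listed members had to be high in that library, and their counts say little by themselves. The median log2 ratio was 1.92 over the 8 genes and 1.42 over all genes.

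**Figure D1:**
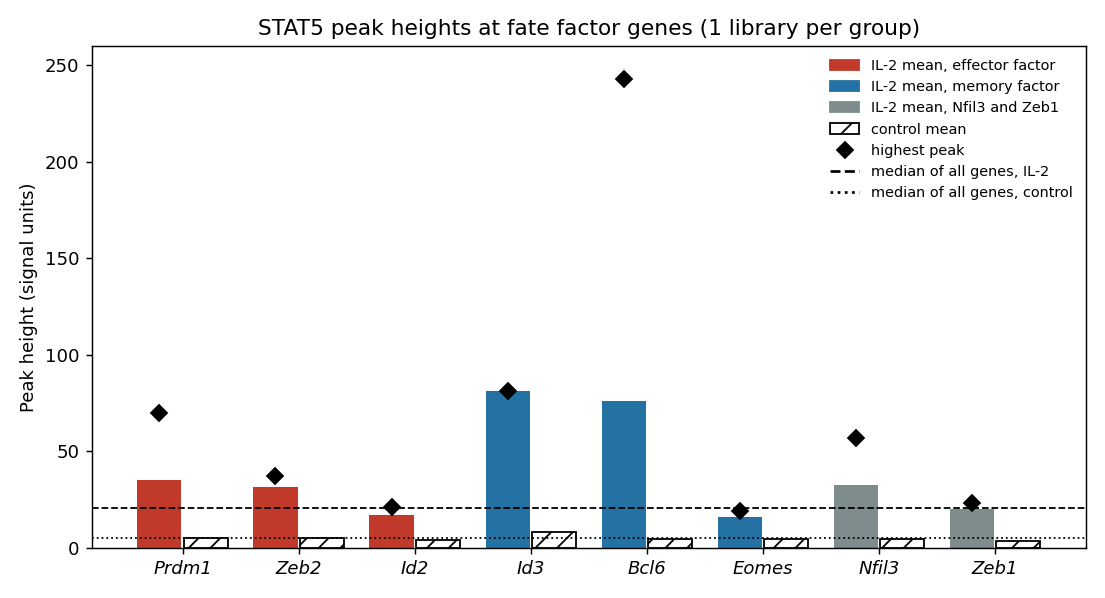
Mean peak height over the regions of each gene with IL-2 (filled bars, left) and in control (hatched bars, right), with the highest peak of the gene as a diamond, in signal units. The dashed and dotted lines are the medians over all 4934 genes, 20.75 with IL-2 and 5 in control. Id3 and Bcl6 stand above the other genes by mean height, and the highest peak of Bcl6, 243, stands far above its mean of 75.75.

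Among the effector factors, Prdm1 had the most signal. Prdm1 (GeneID:12142, chromosome 10 from 44437175 to 44458687, minus strand, mm10) had a mean height of 35.25 with IL-2 and 5.25 in control over 4 regions (log2 ratio 1.97). Its summed height with IL-2 was 141, of which the highest region held 70 and the other 3 together held 71. A region 911 bp inside the gene, at 44457776, was the nearest to its start, and another lay 10143 bp inside. The remaining pair lay 2263 and 7607 bp past the end of the gene. By the table's extent, the regions of Prdm1 were thus spread over the gene and its downstream flank. Which of them held the height of 70 is not known. RefSeq extends Prdm1 further upstream, to 44528558, and no listed region lay in that extension. Among the 190 genes with 4 intervals, 70 had a higher mean height than Prdm1. The median share of the highest region over these genes was 46.5%, against 49.6% at Prdm1.

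Zeb2 carried its regions far from its start. Zeb2 (GeneID:24136, chromosome 2 from 44983634 to 45113279, minus strand) had a mean height of 31.33 with IL-2 and 5 in control over 3 regions (log2 ratio 1.86). A region at 45056192 lay 57087 bp inside the gene, and the others lay 1714 and 6578 bp past its end. The highest was 37 of a summed 94, or 39.4%, and the other 2 together held 57. The median of that share was 52.4% over the 362 genes with 3 intervals.

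Id2 had low signal. Id2 (GeneID:15902, chromosome 12 from 25093799 to 25096092, minus strand) had a mean height of 17 with IL-2 and 4 in control (log2 ratio 1.29). Its 2 regions had heights of 21 and 13 with IL-2, and the table does not say which is which. They flanked the short gene, 564 bp upstream of the start and 1287 bp past the end. By mean height 61.4% of all genes in the table stood above Id2.

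Tbx21, which encodes the effector factor T-bet, had no row. In RefSeq (GRCm38.p6, the mm10 build) it lies on chromosome 11 from 97098007 to 97115331 on the minus strand. The nearest listed region was at 97127104, 11773 bp upstream of its start, with a height of 28 with IL-2 and 5 in control (log2 ratio 1.72). That region was listed for Tbkbp1 only, the gene of an adaptor that binds the kinase TBK1. Of upstream distances in the table, 95.8% were at most 10000 bp and the largest was 13164 bp, so the region lay near the edge of the authors' assignment. The next listed region on the other side was at 97030208, 67799 bp past the end of Tbx21. Intervals of the IL-2 library are numbered in order of position, and 0 numbers were missing between these neighbours, so no interval was called over Tbx21 itself.

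Bcl6 had the strongest single region of the 9 factors. Bcl6 (GeneID:12053, chromosome 16 from 23965052 to 23988612, minus strand) had a mean height of 75.75 with IL-2 and 4.5 in control over 4 regions (log2 ratio 3.09). Its highest peak, 243, was the 4th highest of all 4934 genes. That region held 80.2% of the summed height of 303, and the other 3 regions together held 60, a mean of 20. Among the 190 genes with 4 intervals, the median share of the highest region was 46.5%, and only 4, Bcl6 included, had a share as large as that of Bcl6. With the highest region left out in the same way, the means were 23.7 at Prdm1 and 24 at Nfil3, which also had 4 regions.

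All 4 Bcl6 regions lay at the first part of the gene. By the table's gene start they were 60 bp upstream of it and 3876, 5860 and 7268 bp inside. RefSeq extends Bcl6 further upstream, to 23988866. The outermost region, at 23988672, was thus 180 bp inside from the outer RefSeq start at 23988852. The table does not say which of the 4 regions held the peak of 243. The innermost, at 23981344, lay 61 bp upstream of a further RefSeq transcript start of Bcl6, at 23981283. Promoter windows from RefSeq ran from 250 bases before to 50 after a transcript start. They were at hand for the genes of 21 of the 23 regions. The region at 23981344 was the only 1 of the 21 to fall inside a window of its gene. No window covered the outer RefSeq end of Nfil3 at 52982878, near its region at 52982912, or that of Prdm1 at 44528558. Regions at those ends could therefore not be counted. The windows at both Bcl6 starts, and a window of Zeb2 for contrast, are shown here because they hold the STAT-type motif TTCNNNGAA (capitals). The sequences are those of RefSeq, build GRCm38.p6, 5′ to 3′ along the minus strand on which both genes lie.
Bcl6 inner start, chr16:23981234-23981533: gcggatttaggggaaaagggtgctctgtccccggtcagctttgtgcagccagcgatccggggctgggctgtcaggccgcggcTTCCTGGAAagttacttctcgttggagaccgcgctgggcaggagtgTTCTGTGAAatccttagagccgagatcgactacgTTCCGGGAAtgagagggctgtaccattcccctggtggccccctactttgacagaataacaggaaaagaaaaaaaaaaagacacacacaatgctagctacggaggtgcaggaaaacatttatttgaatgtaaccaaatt
Bcl6 outer start, chr16:23988803-23989102: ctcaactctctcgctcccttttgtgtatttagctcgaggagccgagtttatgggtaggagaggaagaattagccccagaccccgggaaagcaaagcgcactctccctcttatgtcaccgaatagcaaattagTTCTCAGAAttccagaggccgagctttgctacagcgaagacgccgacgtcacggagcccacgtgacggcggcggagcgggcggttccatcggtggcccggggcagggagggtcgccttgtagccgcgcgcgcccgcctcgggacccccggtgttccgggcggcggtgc
Zeb2, chr2:45113230-45113529: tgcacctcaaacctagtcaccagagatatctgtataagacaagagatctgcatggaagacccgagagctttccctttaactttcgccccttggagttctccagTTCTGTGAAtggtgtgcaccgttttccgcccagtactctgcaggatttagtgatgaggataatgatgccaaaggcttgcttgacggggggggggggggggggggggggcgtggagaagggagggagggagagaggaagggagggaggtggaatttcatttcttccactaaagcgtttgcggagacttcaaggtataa

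The window at the inner Bcl6 start held the motif 3 times, and the motif nearest to the region position, TTCCGGGAA at 23981363 to 23981371, lay 23 bp from it by its centre. TTCTGTGAA lay 57 bp and TTCCTGGAA 103 bp from the region position. The window at the outer start held TTCTCAGAA, 294 bp from the nearest region position. Of all 32851 RefSeq promoter windows, 8.30% held TTCNNNGAA, which reads the same on both strands, and 11 windows (0.0335%) held it at least 3 times. Of the 437 windows that held a listed region position, 46.2% had the motif and 1 had it at least 3 times, the inner window of Bcl6. Windows of the same gene can overlap, and a match is a description of the letters, not a sign of binding.

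RefSeq windows were found for 8 of the 9 factors, 12 windows in all. TTCNNNGAA was in 4 of them, those of Bcl6 and 2 overlapping windows of Zeb2 that share a single TTCTGTGAA. No listed region lay near that Zeb2 site, the nearest being 57230 bp away inside the gene. The windows of Prdm1, Id2, Id3, Eomes, Nfil3 and Tbx21 did not hold these letters, and no listed region lay inside them. The same motif with a spacer longer by 1 base was in 1 of the 12 windows, at another start of Zeb2, and in 6.95% of all windows.

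Id3 reached a high level with a single region. Id3 (GeneID:15903, chromosome 4 from 136143822 to 136145392, plus strand) had a height of 81 with IL-2 and 8 in control (log2 ratio 2.73). The region lay at 136147584, 2192 bp past the end of the gene, and was listed for Id3 only. Of the 3287 genes with 1 interval, 92 had a higher height with IL-2 and the median was 18. The control height of Id3 was the highest of the 8 genes, and stood 84th of all 4934 genes. Its relative Id2 had a mean height of 17 with IL-2 and 4 in control, so both libraries gave lower heights at Id2.

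Eomes had the lowest height of the 8 genes with IL-2. Eomes (GeneID:13813, chromosome 9 from 118478189 to 118486132, plus strand) had a mean height of 16 with IL-2 and 4.67 in control over 3 regions (log2 ratio 1.12). Its highest peak was 19, and the other 2 regions together held 29. The regions lay 1645 bp upstream of the start, 1043 bp inside and 3004 bp past the end. Of the 362 genes with 3 intervals, 309 had a higher mean height. Eomes thus combined several regions with low signal at each.

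**Figure D2:**
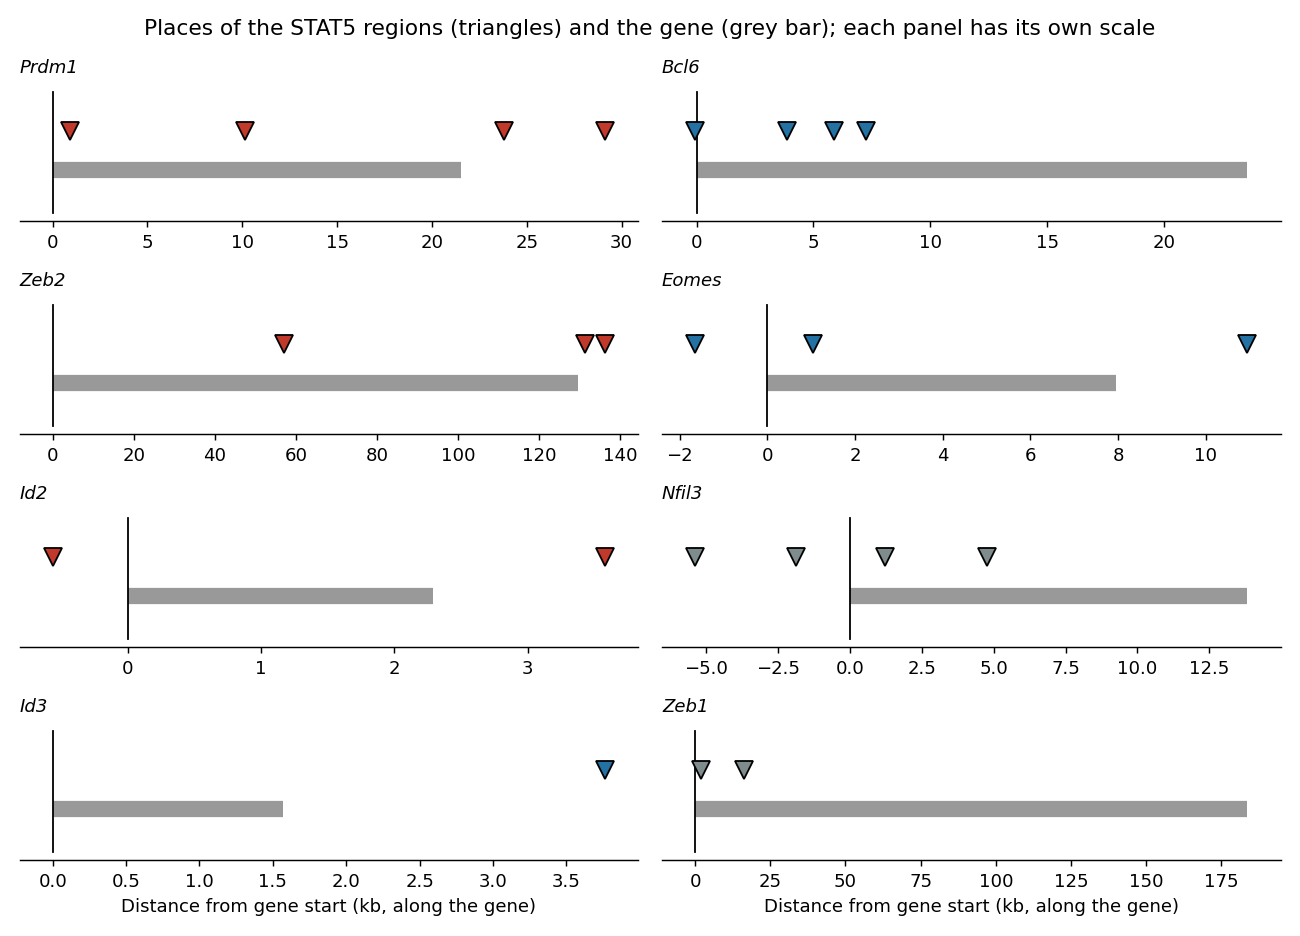
Each panel shows a gene as a grey bar from its start, in kb along the gene, with its STAT5 regions as triangles (red for effector factors, blue for memory factors, grey for Nfil3 and Zeb1). The scales differ between panels. The Bcl6 regions crowd within 7268 bp of the start, while those of Zeb2 lie 57087 to 136223 bp from it.

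Nfil3 and Zeb1 belong to neither class. Nfil3 (GeneID:18030, chromosome 13 from 52967209 to 52981039, minus strand) had a mean height of 32.25 with IL-2 and 4.25 in control over 4 regions (log2 ratio 2.01). Its regions lay on both sides of the start, 5393 and 1873 bp upstream and 1231 and 4751 bp inside. RefSeq extends Nfil3 further upstream, to 52982878, and the region at 52982912 lay 34 bp outside that extent. The highest, 57, held 44.2% of the summed 129. Nfil3 resembled Prdm1 in region number and mean height and differed in that none of its regions lay past the gene.

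Zeb1 (GeneID:21417, chromosome 18 from 5591860 to 5775468, plus strand) had a mean height of 20 with IL-2 and 3.5 in control over 2 regions (log2 ratio 1.56). Because the first of them was also listed for Gm10125, the height of each could be told. The region at 5593680, 1820 bp inside Zeb1 and 1243 bp from the start of Gm10125, had 23 with IL-2 and 4 in control. The region at 5608128, 16268 bp inside Zeb1, had 17 with IL-2 and 3 in control. Gm10125 was the only gene that shared a region with any of the factors, and 22 of their 23 regions were listed for a single gene, against 69.9% of the 5703 distinct regions of the table. Between the related genes, Zeb2 had the higher mean height with IL-2 and Zeb1 the regions nearer to its start.

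Set side by side, the effector and memory factors did not separate. The number of regions was 4, 3, 2 and 0 at the effector factors Prdm1, Zeb2, Id2 and Tbx21 (median 2.5) and 4, 3 and 1 at the memory factors Bcl6, Eomes and Id3 (median 3). These numbers were not adjusted for gene length, which ran from 1570 bp at Id3 to 129645 bp at Zeb2. The mean heights with IL-2 were 17 to 35.25 at the 3 listed effector factors (median 31.33) and 16 to 81 at the memory factors (median 75.75), so the ranges overlapped. In control the median was 5 for the effector factors and 4.67 for the memory factors. The highest peaks ran from 21 to 70 for the effector factors (median 37) and from 19 to 243 for the memory factors (median 81). Bcl6 and Id3 stood above every effector factor on both measures, and Eomes stood below every one. Per region, the effector factors had a mean height of 29.9 with IL-2 over 9 regions and the memory factors 54.0 over 8 regions. Without the highest region of each class, a choice made after the values were seen, the means were 24.9 over 8 regions for the effector factors and 27.0 over 7 regions for the memory factors. Without Bcl6 the memory factors had 32.25 over 4 regions. Control heights per region were 4.89 for the effector factors and 5 for the memory factors. With 3 or 4 genes in a class and 1 library per group, these are descriptions of the genes.

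**Figure D3:**
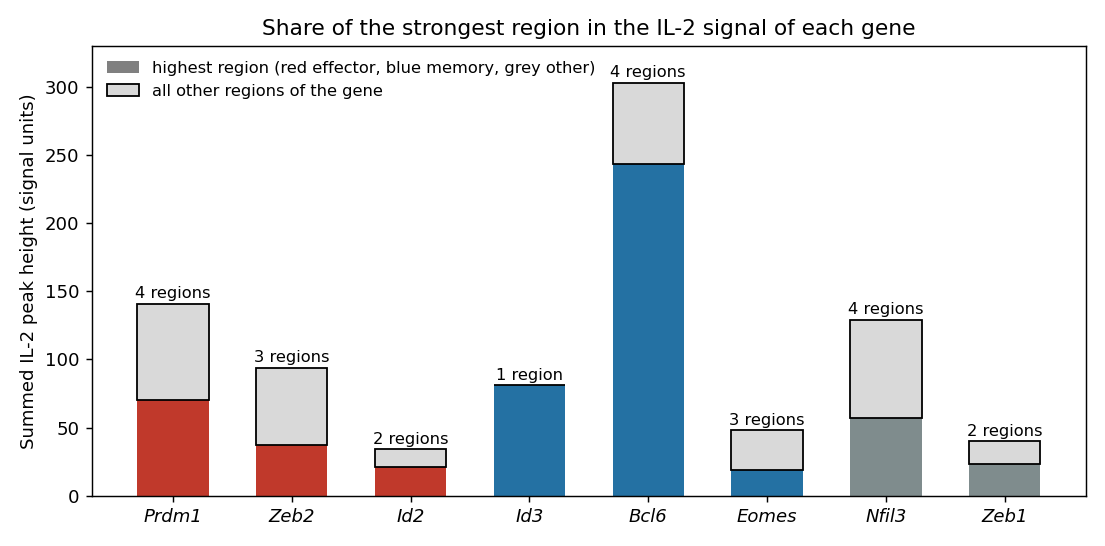
Summed peak height with IL-2 over the regions of each gene, in signal units, split into the highest region (coloured part) and all others (light part), with the number of regions above each bar. Bcl6 reaches 303, of which 243 is a single region, while the highest regions of Prdm1 (70 of 141) and Zeb2 (37 of 94) hold smaller shares.

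The places of the regions differed in detail. Regions past the end of the gene made up 5 of 9 at the effector factors and 2 of 8 at the memory factors, against 20.3% of all 8337 pairs of a region and a gene. Regions inside the gene made up 3 of 9 and 4 of 8, against 4169 of all 8337 pairs, and those upstream 1 of 9 and 2 of 8, against 29.7%. These places follow the gene extents of the table, by which the outermost Bcl6 region, inside the gene in RefSeq, counts as upstream. Within 1 kb of the start lay 2 of the 9 regions of the effector factors (Prdm1 and Id2) and 1 of the 8 of the memory factors (Bcl6), against 22.0% of all pairs. Within 5 kb the counts were 3 of 9 and 5 of 8, against 40.5% of all pairs. At these numbers a single gene moves each count.

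Other regulators of T cell fate were listed nearly as often as the 9 factors. Of 44 such genes, 38 had a row, against 8 of the 9 factors, 11 of 22 partners and relatives of the factors, and 19.1% of all 21896 protein-coding genes in RefSeq. The list of 22 also holds genes of the IL-2 receptor and its kinases. The ratio was at least 2 for 36 of the 38 regulators, against 83.8% of all genes. The exceptions were Klf2, a factor of quiescent T cells named here after its value was seen (20.67 with IL-2 and 8.33 in control), and Tcf7. The median height with IL-2 was 31.79 over the 8 listed factors and 24.6 over the 38 regulators. The median number of regions was 3 and 2, against 1 over all genes. Genes with more regions had higher heights, with a median of 18 at 1 region and 29.25 at 4. How far this bears on the difference was not tested. The highest regulators were Bhlhe40 (76.33 with IL-2 and 6 in control), a helix-loop-helix repressor, and Junb (69 and 5), a subunit of AP-1. Next were Tox2 (48 with IL-2 and 5 in control) and Irf4 (45.67 and 4), an interferon regulatory factor that acts downstream of the T cell receptor. The lowest were Myb (10 with IL-2 and 2 in control) and Tcf7 (11 and 7), a factor of naive and memory T cells. Stat5a, Gata3, Hif1a, Zbtb20, Hopx and Klf4 had no row.

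In the list of partners and relatives, Il2ra (81.17 with IL-2 and 5.5 in control) and Il2rb (48.33 and 5.33) had the highest levels. These encode IL-2 receptor chains, which were put in the list beside the partners of the factors. Dbp, which competes with Nfil3 for its sites, had 35.5 with IL-2 and 4.5 in control, and Prdm2, a relative of Prdm1, had 32 with IL-2 and 4 in control. The genes of the E proteins that Id2 and Id3 bind lay on both sides of the table median. Tcf12 had 13.8 with IL-2 and 3.4 in control over 5 regions, and Tcf3 had 16 with IL-2 and 4 in control. Tcf4, named here to complete the E proteins, had 22 with IL-2 and 5 in control. Sin3a, a corepressor that Bcl6 recruits, had 16 with IL-2 and 5 in control. The ratio was at least 2 for all 11 genes of this list that had a row, against 83.8% of all genes. The other Id genes Id1 and Id4, the corepressor genes Bcor, Hdac3, Ctbp1 and Ctbp2, the relatives Bcl6b and Tbr1, and Hlf, Il2rg and Jak3 had no row.

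**Figure D4:**
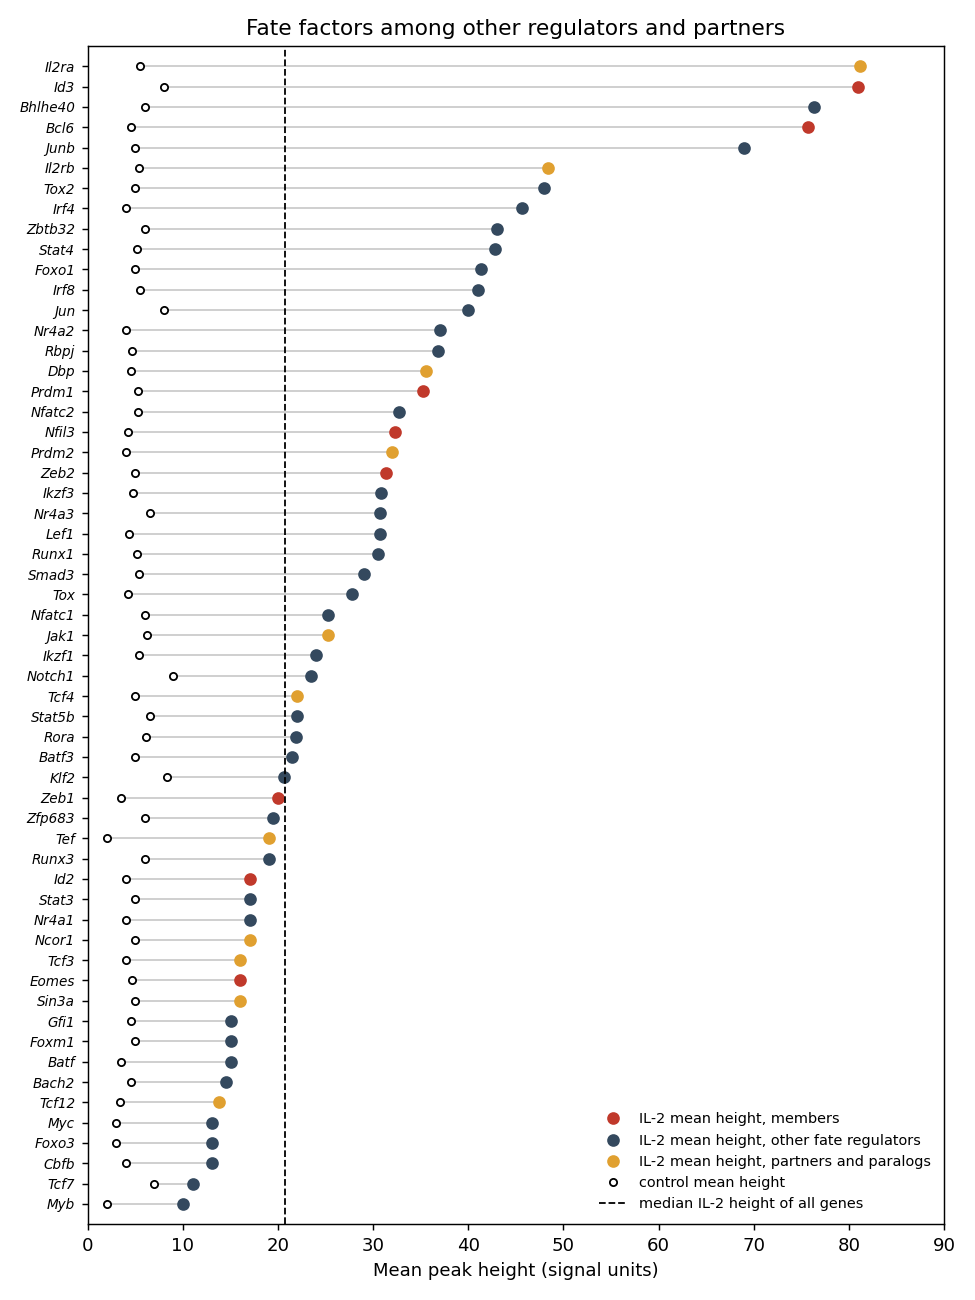
Mean peak height in signal units with IL-2 (filled points) and in control (open points) for the 8 listed fate factors (red), 38 other regulators of T cell fate (dark) and 11 partners and relatives (yellow), ordered by the IL-2 height. The yellow points include genes of the IL-2 receptor and its kinases. The dashed line is the median IL-2 height of all 4934 genes, 20.75. Id3 (81) and Bcl6 (75.75) lie among the highest 4 genes, and Id2 (17) and Eomes (16) lie below the line.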

How the data were processed

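STAT5 ChIP-seq libraries of IL-2-treated and control CD8 T cells (1 each) were used. Per the submitters' processing notes, BWA and mm10 were used; no source used here names the peak caller, read extension, depth or any scaling of the libraries, so counting error is unknown. The authors deposited peak heights, a signal that is never negative, as a mean per gene and library, with the number, place and distance of regions. No column of other samples was present (0 columns).

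Members and gene lists were chosen with earlier results of these data known. Named were all 9 factors, genes sharing their regions, and from each other list the 4 highest, the 2 lowest (with ties) and those without a row; Zfp683 is the mouse spelling of a listed symbol. Some genes of the lists are not reported here and were left out of their counts. Region positions were computed from gene start and distance; all 23 were multiples of 16 bp, so they are coarse. Summed heights were means times region number, whole within 0.02 for 8 of 8 genes; subtracting the highest peak gave the rest. All 9 symbols were found in RefSeq, with the same gene ID for the 8 listed genes. RefSeq extends Prdm1, Nfil3, Zeb2, Bcl6, Zeb1 and, by very little, Eomes further upstream than the table. Python 3.11.15 and pandas 2.3.3 were used; the sum step was tested on simulated data. Alternatives changed the pseudocount, ratio, scaling, IL-2 value, distance and members included.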

Additional observations from a re-analysis of the deposited data

How the results depend on the processing

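No paired analysis was possible because there was only 1 library of each kind. All 8 listed factors had a ratio of at least 2 (83.8% of all genes), and 6 to 8 did with other pseudocounts or the highest peak. This became 3 (23.1% of all genes) with a ratio of 4, a stricter rule, and 2 (11.9% of all genes) with the libraries brought to equal medians. With equal medians the log2 ratio of Eomes was -0.19. That scaling moves the median log2 ratio of all genes to 0.13 by construction, so it cannot show a direction. For the 38 other fate regulators the count of 36 was 10 with a ratio of 4, against 23.1% of all genes. It was 3 with scaling, against 11.9% of all genes. Scaling also set the median heights to 19.4 for effector and 47.0 for memory factors. Without Bcl6 the memory factors had a median of 2 regions, a median height of 48.5 and a median highest peak of 50. Both heights were above the effector medians, but with 2 genes they are midpoints of Id3 (81 for both) and Eomes (16 and 19). Eomes lay below every listed effector factor on both. Chosen after seeing the data, leaving out the highest region of each class gave 24.9 per region for effector and 27.0 for memory factors, and leaving out Bcl6 gave 32.25 for memory factors. Within 5 kb of the start lay 12 of 23 regions (40.5% of all pairs of a region and a gene), against 3 within 1 kb (22.0% of all pairs). Within 1 kb of a RefSeq start with a promoter window (none for Zeb1) lay 4. This last count was added after seeing the data, and no share over all pairs was taken for it. Region numbers by nearest listed start had the medians of the main count. Depth is unknown, so low heights such as those of Eomes and Id2 carry an unknown counting error.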

Other observations

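Beyond the regions listed for genes, the numbering of intervals in the IL-2 library shows intervals that no gene of the table as analysed here carries, 1591 of 7294. Their heights and exact positions are not given, only the listed neighbours between which they lie. Upstream of Id2 there were 20 such intervals, between its region at 25096656 and a region listed for Cmpk2 at 26469200 on chromosome 12. Of 5682 gaps between neighbouring listed regions on a chromosome, 4995 held 0 such intervals, and the gap upstream of Id2 had the second most, the most being 21. The gap spans 1.37 Mb and holds 2 protein-coding genes of RefSeq, Rnf144a and Rsad2. By length it held 14.6 such intervals per Mb. The gap between Rpl11 and Id3 held 34.3 per Mb, and that between Atg5 and Prdm1 held 12.4. Id2 itself had a mean height of only 17 with IL-2 and 4 in control at its own 2 regions. Whether these intervals bear on Id2 was not tested.

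Unlisted intervals lay beside other factors as well. There were 3 between the region of Rpl11 at 136060224 and that of Id3 at 136147584 on chromosome 4, within 0.0874 Mb. Beside Bcl6 there were 3 on the upstream side, before the region listed for Lpp at 24392768 on chromosome 16. Past the end of Prdm1 there were 2, between its regions and the region of Atg5 at 44268384 on chromosome 10, and past the end of Zeb2 there were 3. Over much longer gaps on their upstream sides, Prdm1 had 8 in 7.02 Mb and Zeb2 had 6 in 4.39 Mb. Around Eomes, Nfil3, Zeb1 and Tbx21 there were 0 up to the next listed region on either side.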
